A study of Mus musculus with 6 samples.

Results

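The genes described are 7 host genes of small nucleolar RNAs (snoRNAs) that make no known protein: Gas5, Snhg1, Snhg4, Snhg6, Snhg9, Snhg12 and Dancr. They were chosen by gene symbol, and all 7 were present among the 17484 genes of the count files and passed the filter on low counts. The cells were of the E14 line, pluripotent mouse embryonic stem cells from strain 129/Ola, kept on gelatin with serum and LIF. Treatment began 24 h after seeding. Cycloheximide stalls elongating ribosomes, and it was added to 250 µg/mL, dissolved in 0.007% ethanol, for 3 h or for 6 h, while control cells had ethanol alone for 9 h. Each of the 3 groups held 2 bulk RNA libraries. Controls and treated cells thus differed both in the drug and in the length of exposure, and those effects cannot be told apart. The labels do not say that the libraries came from separate cultures, so the p-values measure the spread between these libraries, which may be technical.

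A snoRNA host gene is transcribed as a long precursor. Its introns carry snoRNAs, which are trimmed out after splicing and guide chemical modification of ribosomal and spliceosomal RNA. Box C/D snoRNAs direct ribose methylation and box H/ACA snoRNAs direct pseudouridine formation. The exons of a non-coding host are joined into a spliced RNA that reaches the cytoplasm, where ribosomes can translate its short reading frames. A ribosome that stops well upstream of an exon junction can trigger nonsense-mediated decay (NMD), a pathway that needs ongoing translation, and the spliced Gas5 RNA is a textbook substrate. Many hosts also begin with a terminal oligopyrimidine tract, an unbroken stretch of C and T bases at the transcription start that is shared with ribosomal protein genes.

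The start regions of 5 hosts are shown because a pyrimidine tract at the start is a classical feature of this gene family. They come from RefSeq promoter windows on GRCm38.p6, the assembly that mm10 also denotes, and each runs from 100 bases before the annotated start to 50 bases from it onward, on the gene's strand, 5′ to 3′. Capitals mark the longest run of C and T within 20 bases of the start. The windows are chr1:161035066-161035215 (plus strand) for the downstream of 2 annotated Gas5 starts, chr19:8723387-8723536 (plus) for Snhg1, chr4:132308578-132308727 (plus) for Snhg12, chr17:24719916-24720065 (minus) for Snhg9 and chr5:74092960-74093109 (plus) for Dancr.
Gas5: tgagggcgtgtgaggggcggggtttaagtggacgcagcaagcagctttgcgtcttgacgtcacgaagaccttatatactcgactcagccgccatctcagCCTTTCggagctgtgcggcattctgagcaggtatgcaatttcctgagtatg
Snhg1: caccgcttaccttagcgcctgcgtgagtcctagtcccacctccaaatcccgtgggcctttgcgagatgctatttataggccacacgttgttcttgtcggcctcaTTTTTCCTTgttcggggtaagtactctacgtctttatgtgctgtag
Snhg12: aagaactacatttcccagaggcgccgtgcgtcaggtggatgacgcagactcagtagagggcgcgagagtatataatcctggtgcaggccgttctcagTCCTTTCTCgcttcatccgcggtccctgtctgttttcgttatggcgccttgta
Snhg9: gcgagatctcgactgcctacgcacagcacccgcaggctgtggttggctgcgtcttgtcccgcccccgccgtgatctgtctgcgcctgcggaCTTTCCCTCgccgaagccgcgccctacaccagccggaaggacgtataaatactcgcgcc
Dancr: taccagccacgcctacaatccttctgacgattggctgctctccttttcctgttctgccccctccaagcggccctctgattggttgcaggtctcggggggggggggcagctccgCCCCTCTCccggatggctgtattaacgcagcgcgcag

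A run of C and T that held or touched the start base was 9 bases long in Snhg12 and in Snhg9. It was 6 bases at the downstream Gas5 start and 4 in Snhg1, and Dancr had none. At the upstream Gas5 start, whose window is not shown, such a run was 1 base long. Of 32851 RefSeq windows, 18.7% had such a run of at least 5 bases. Within 20 bases of the start the longest run was 9 bases in Snhg1, beginning 4 bases after the start. It was 8 bases in Dancr, beginning 13 bases after the start, and 3 bases at the upstream Gas5 start. Runs of at least 8 and at least 9 bases within that distance occurred in 16.5% and 10.9% of all windows. Run length alone did not sort these hosts by their response to cycloheximide. Snhg12, which rose, and Snhg9, which fell at 6 h, both had runs of 9 bases that held or touched the start. These runs differed in position. The run of Snhg12 began 3 bases before the start and crossed it. The run of Snhg9 began 9 bases before the start and ended just before it, outside the annotated transcript.

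Further motifs were searched in the full windows of 250 bases before to 50 after the start, CACGTG and CCAAT and also TGACGTCA on both strands and TATAAA on the gene's strand. CACGTG, present in 7.15% of all windows, was found in Snhg9 alone of these 5 genes. TGACGTCA, in 1.79% of all windows, was found at the downstream Gas5 start and not at the upstream one. CCAAT was found in Dancr and occurs in 37.4% of windows. TATAAA was found in Snhg9, 34 bases after the start, and occurs in 8.32% of windows. A match is a description of these letters and not a bound site.

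Of the small RNAs carried by these hosts, 3 are shown because their counts are set against those of the host further on. The sequences follow GENCODE M21 spans on the same assembly, 5′ to 3′. Snora44 lies in an intron of Snhg12 at chr4:132309941-132310069 (plus strand), Snora78 in an intron of Snhg9 at chr17:24719676-24719803 (minus) and Snord47 in an intron of Gas5 at chr1:161038082-161038158 (plus). Capitals mark the ACA close to the 3′ end of Snora78, and in Snord47 the C box TGATGA and the D box CTGA. The annotated span of Snora44 has no ACA near its 3′ end and therefore no capitals.
Snora44: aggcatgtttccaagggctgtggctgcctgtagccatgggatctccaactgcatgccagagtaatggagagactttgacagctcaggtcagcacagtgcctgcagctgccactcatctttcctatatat
Snora78: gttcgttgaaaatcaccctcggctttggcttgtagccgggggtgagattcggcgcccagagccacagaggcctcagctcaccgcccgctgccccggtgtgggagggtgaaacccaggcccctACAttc
Snord47: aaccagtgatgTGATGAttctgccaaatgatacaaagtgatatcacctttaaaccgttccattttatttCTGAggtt

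**Figure D1:**
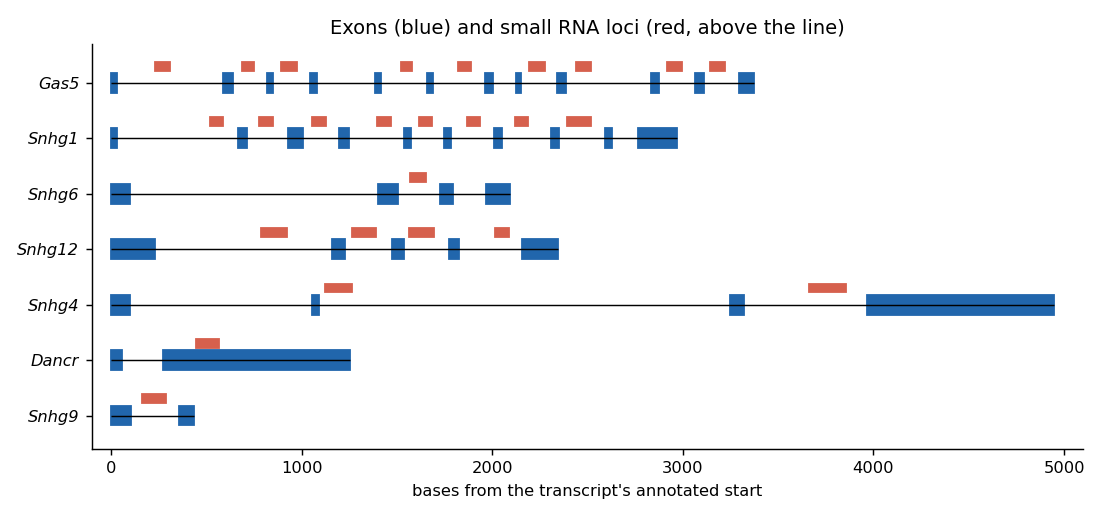
Exons (blue boxes) and annotated small RNA loci (red boxes) of 1 GENCODE transcript per host gene, drawn to scale in bases from the transcript's start. Gas5 and Snhg1 are built of 12 and 10 exons with 9 and 8 small RNA loci, while Dancr and Snhg9 have 2 exons and 1 small RNA each.

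The gene maps show how unlike these hosts are in build. Of the small RNA loci drawn, 1 in Gas5 and 1 in Snhg4 carry microRNA names, Mir5117 and Mir1949, although GENCODE gives both the type snoRNA. Gas5 had 12 exons, a spliced length of 502 bases and 9 small RNA loci, and Snhg1 had 10 exons, 605 bases and 8 loci. Snhg12 had 5 exons, 606 bases and 4 loci, and Snhg6 had 4 exons, 400 bases and 1 locus. Snhg4 had 4 exons, 1190 bases and 2 loci. Dancr and Snhg9 had 2 exons and 1 locus each, with spliced lengths of 1036 and 183 bases. The small RNA of Dancr overlaps an exon of the transcript drawn, and those of the other 6 hosts lie in introns.

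Library totals ran from 9385447 to 27351079 counts, and the deepest libraries were those at 6 h. The libraries of each pair were not copies of each other: their counts differed by more than sampling noise, at 18.7 to 27.7 chi-square units per degree of freedom. All 9 stem cell markers looked up, Pou5f1 and Nanog among them, were above a floor of 3 counts in every library. Their summed level was 5880 to 6058 scaled CPM (counts made comparable between libraries of unequal depth) in control, 7161 to 7472 at 3 h and 4973 to 5013 at 6 h. Single markers moved in different directions. Sox2 went from 2281 and 2601 scaled CPM in control to 3847 and 3956 at 3 h. Tfcp2l1 went from 161.5 and 170.4 to 80.6 and 69.1. The 9 markers of differentiated cells summed to 70.1 to 90.3 scaled CPM in control, 110 to 136 at 3 h and 73.8 to 89.4 at 6 h. Fibroblast markers, 5 of 7 with an entry in the files, summed to 7.92 to 10.1, 4.39 to 7.68 and 3.06 to 6.17 in the same order. Among them Thy1 held 40 to 127 counts and Col1a1 12 to 50 across the libraries, while Dcn was at 0 in control and at 3 h. Mitochondrially encoded genes held 24.7% and 24.9% of counts in control, 18.9% to 19.6% at 3 h and 16.6% to 17.4% at 6 h. With those genes left out, the same number of host genes passed the test in each comparison, and no host's log2 fold change moved by as much as its standard error (SE).

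After 3 h of cycloheximide, 4 of the 7 host genes had risen and 2 had fallen, and at 6 h 4 were higher and 3 lower. Snhg1, Snhg12, Snhg6 and Gas5 rose at both times. Snhg4 and Dancr fell at both times and Snhg9 at 6 h. Changes were called at a Benjamini-Hochberg adjusted p under 0.05 in edgeR's quasi-likelihood test over 12755 genes. At 3 h, 4.90% of all tested genes were called, 3.60% higher and 1.30% lower. At 6 h, 29.0% were called, 14.8% higher and 14.3% lower. The median log2 fold change of the 7 hosts was 0.72 at 3 h and 0.98 at 6 h, beside 0.02 and 0.04 over all tested genes, but it describes a set in which some genes rose and others fell. Both comparisons use the same control libraries. With library size as the only scaling, the median of all tested genes moved to 0.25 and 0.40, and the hosts kept their directions and calls at both times. In bulk RNA, fewer expressing cells and less RNA per cell cannot be told apart.

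**Figure D2:**
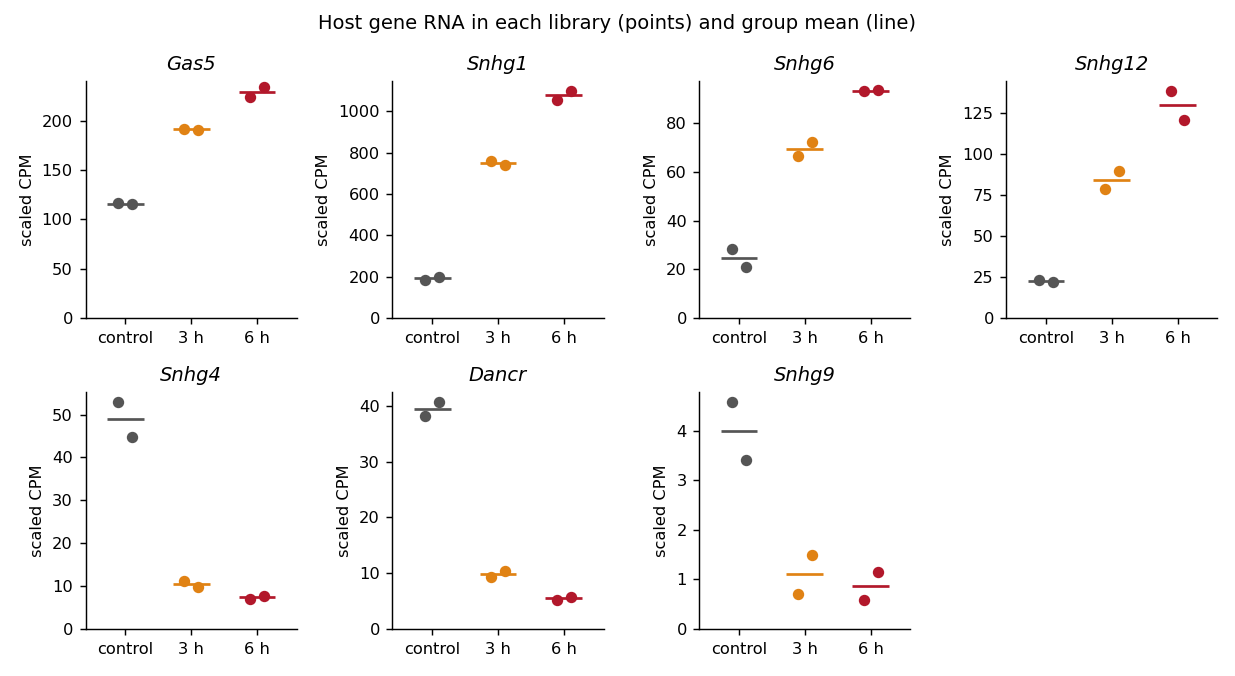
Scaled CPM of each host gene (vertical axis, from 0) in the 2 libraries of control, 3 h and 6 h (points), with the group mean as a line. In Gas5, Snhg1, Snhg6 and Snhg12 every treated library lies above both controls, and in Snhg4, Dancr and Snhg9 every treated library lies below both.

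Snhg1, the host of Snord22 and of 7 further small RNA loci, spans chr19:8723487-8726326 on the plus strand. It held 2493 and 1639 counts in control, 11785 and 12815 after 3 h and 32037 and 28734 after 6 h. Scaled to library size by the trimmed mean of M values and expressed as scaled CPM, these were 185 and 200.2 in control, 761 and 740.1 after 3 h and 1057 and 1101 after 6 h. The 3 groups did not overlap, and the libraries of a group lay close together. Snhg1 was 3.90-fold higher at 3 h, a log2 fold change of 1.96 ± 0.10 (SE; edgeR adjusted p = 4.54e-05). At 6 h it was 5.61-fold higher, a log2 fold change of 2.49 ± 0.10 (SE; edgeR adjusted p = 7.58e-06).

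Snhg12 carries Snora16a, Snora44, Snora61 and Snord99 and spans chr4:132308678-132311024 on the plus strand. Its scaled CPM was 23.1 and 21.9 in control, 78.9 and 89.3 after 3 h and 138.5 and 120.5 after 6 h, from 312, 179, 1222, 1546, 4199 and 3145 counts. The groups were apart at both times. Snhg12 was 3.73-fold higher at 3 h (log2 fold change 1.90 ± 0.14, SE; edgeR adjusted p = 2.96e-04) and 5.75-fold higher at 6 h (2.52 ± 0.14; edgeR adjusted p = 4.1e-05). These sizes depend on which counts belong to the host. When the counts of its 4 small RNAs were added, the log2 fold change was 0.87 at 3 h (edgeR adjusted p = 0.0223) and 1.48 at 6 h (edgeR adjusted p = 7.03e-04).

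Snhg6, whose intron holds Snord87, spans chr1:9942025-9944118 on the minus strand. It reached 28.3 and 21.1 scaled CPM in control, 66.6 and 72.1 after 3 h and 93.0 and 93.6 after 6 h, from 173 to 2821 counts. The control libraries were the most spread, and all treated libraries lay above them. Snhg6 was 2.79-fold higher at 3 h (log2 fold change 1.48 ± 0.16, SE; edgeR adjusted p = 0.00258) and 3.75-fold higher at 6 h (1.91 ± 0.16; edgeR adjusted p = 2.4e-04). It overlaps Mcmdc2 on the opposite strand, which held 3 to 11 counts in any library.

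Gas5, named for growth arrest-specific 5, carries 9 small RNA loci and spans chr1:161034601-161038539 on the plus strand. Its fold change was the smallest of the 7. Scaled CPM was 116 and 115 in control, 192 and 190.0 after 3 h and 223 and 234 after 6 h, from 944 to 6773 counts. The library pairs hardly differed within control and within 3 h, and no group overlapped another. Gas5 was 1.65-fold higher at 3 h, a log2 fold change of 0.72 ± 0.10 (SE; edgeR adjusted p = 0.00915), and 1.98-fold higher at 6 h, 0.98 ± 0.10 (SE; edgeR adjusted p = 6.41e-04). Without 3 h replicate 1 or 3 h replicate 2 the 3 h call was lost, at edgeR adjusted p = 0.0775 and 0.0744 with log2 fold changes of 0.71 and 0.73. The upstream Gas5 start faces Zbtb37 on the opposite strand, which held 7 to 78 counts and changed by -0.07 (3 h) and -0.04 (6 h) on the log2 scale.

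Snhg4, host of Snora74a, lies at chr18:35553410-35558316 on the plus strand. Its scaled CPM was 53.0 and 44.8 in control, 11.2 and 9.82 after 3 h and 6.96 and 7.70 after 6 h, from 716, 367, 173, 170, 211 and 201 counts. Every treated library was far below both controls, and the 6 h libraries were below those of 3 h. Snhg4 was 4.67-fold lower at 3 h (log2 fold change -2.22 ± 0.18, SE; edgeR adjusted p = 3.7e-04) and 6.68-fold lower at 6 h (-2.74 ± 0.18; edgeR adjusted p = 6.11e-05).

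Dancr was named as a non-coding RNA that antagonises differentiation and spans chr5:74093060-74094337 on the plus strand. Its scaled CPM was 38.1 and 40.8 in control, 9.30 and 10.3 after 3 h and 5.14 and 5.78 after 6 h, from 515, 334, 144, 179, 156 and 151 counts. The groups were again apart. Dancr was 4.01-fold lower at 3 h (log2 fold change -2.0 ± 0.17, SE; edgeR adjusted p = 6.17e-04) and 7.21-fold lower at 6 h (-2.85 ± 0.18; edgeR adjusted p = 5.51e-05). Its 6 h value and that of Snhg4 differed by less than the SE of either.

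Snhg9, host of Snora78, spans chr17:24719531-24719965 on the minus strand and lies inside the gene of ribosomal protein Rps2 on the opposite strand. It had the fewest counts of the 7, with 62 and 28 in control, 11 and 26 after 3 h and 18 and 30 after 6 h. Scaled CPM was 4.59 and 3.42 in control, 0.710 and 1.501 after 3 h and 0.594 and 1.15 after 6 h. Treated libraries lay below both controls, and the 3 h and 6 h libraries overlapped. The log2 fold change was -1.85 ± 0.58 at 3 h (SE; edgeR adjusted p = 0.0998), which did not pass, and -2.21 ± 0.58 at 6 h (SE; edgeR adjusted p = 0.0226), which did. At 3 h it passed in DESeq2 (adjusted p = 0.0442), without the filter on low counts (edgeR adjusted p = 0.0217) and with the counts of Snora78 added (edgeR adjusted p = 0.0222).

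The 6 h call of Snhg9 was lost without control replicate 1 (edgeR adjusted p = 0.081), 6 h replicate 1 (0.138) or 6 h replicate 2 (0.0678), with log2 fold changes of -1.97, -1.80 and -2.75. Rps2 itself read 731 and 736 scaled CPM in control and 510 and 463 at 6 h, a log2 fold change of -0.59 (edgeR adjusted p = 0.00398). Whether counting used strand is not given in the sources used here, so reads of Snhg9 and Rps2 may not be separated, and the part of Rps2 in the Snhg9 result was not tested.

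**Figure D3:**
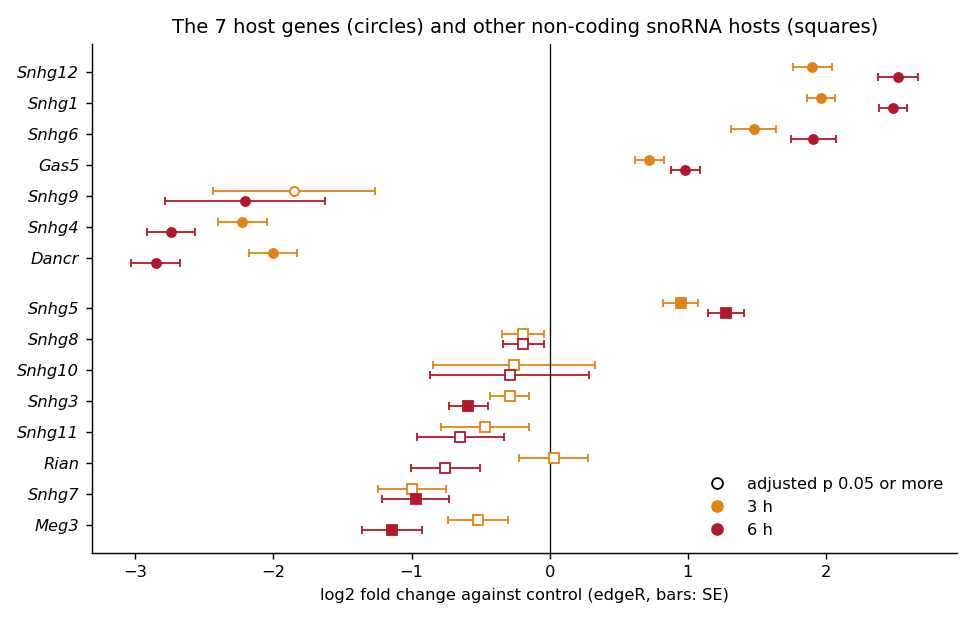
Log2 fold change against control (horizontal axis; points with SE bars) of the 7 host genes (circles) and 8 other non-coding snoRNA hosts (squares) at 3 h (orange) and 6 h (red). Open symbols have an adjusted p of 0.05 or more, and for every circle the 6 h value lies farther from 0 than the 3 h value.

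The plot of fold changes places each host's early and late values side by side. For the 7 hosts the 6 h estimate was farther from 0 than the 3 h estimate, with the same sign, but most differences between the times did not pass the test. Directly compared, 6 h against 3 h, 1 host passed, Snhg1, where 1.64% of all tested genes were called, 0.455% higher and 1.18% lower. Snhg1 rose by a further log2 fold change of 0.52 ± 0.10 (SE; edgeR adjusted p = 0.0364), from 750.4 ± 14.7 to 1079 ± 31.2 scaled CPM (SD, n = 2). This call was lost when any 1 treated library was left out, at edgeR adjusted p = 0.155 to 0.27, and with the replicate number as a block, at 0.0618.

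Snhg12 and Dancr came next, at 0.62 ± 0.13 (SE; edgeR adjusted p = 0.0573) and -0.85 ± 0.18 (SE; edgeR adjusted p = 0.0543). In DESeq2 both passed, at adjusted p of 0.00204 and 0.00917. Snhg6 stood at 0.43 ± 0.15, Gas5 at 0.26 ± 0.10 and Snhg4 at -0.52 ± 0.18 (SE), with edgeR adjusted p of 0.189, 0.227 and 0.173. Snhg9 gave -0.36 ± 0.59 (SE; edgeR adjusted p = 0.798).

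Small RNAs named as snoRNAs in RefSeq and lying inside the hosts had counts of their own at 9 loci. Of these, 6 had enough counts to test, and all 6 log2 fold changes were below 0 at both times, also where the host rose. Snora78, Snora74a and Snora44 were lower at 3 h, where 1.30% of all tested genes were called lower. Snord47 joined them at 6 h, where 14.3% of all tested genes were called lower. The files hold polyadenylated RNA, whereas mature snoRNAs have no poly(A) tail, and whether these counts come from mature snoRNA or from longer RNA that contains it was not tested. Dancr's Snora26 is not analysed here.

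Snora44, an H/ACA snoRNA of Snhg12, fell while its host rose. Its scaled CPM was 28.8 and 18.1 in control, 4.20 and 5.02 after 3 h and 3.89 and 7.59 after 6 h, with every treated library below both controls. The log2 fold change was -2.35 ± 0.36 (SE; edgeR adjusted p = 0.012) at 3 h and -2.04 ± 0.35 (SE; edgeR adjusted p = 0.0045) at 6 h. Snora16a of the same host held 7 to 29 counts, with log2 fold changes of -1.49 and -1.74 that did not pass (edgeR adjusted p = 0.216 and 0.0812). Snora61 and Snord99 held at most 9 counts in any library.

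The small RNA share of a locus is the counts of its analysed small RNAs over these plus the host's counts. For Gas5 this covers Snord47 alone of 9 loci, for Snhg1 Snord22 alone of 8 and for Snhg4 Snora74a alone of 2. For Snhg12 the share covers all 4 loci. In Snhg12 it was 58.2% (95% exact Clopper-Pearson interval 54.5% to 61.7%) and 48.1% (42.7% to 53.5%) in control, 5.86% and 6.42% after 3 h and 3.14% and 6.76% after 6 h. In Gas5 it was 0.822% and 0.632% in control and at most 0.0672% in treated libraries, where the 0 counts of 6 h replicate 2 allow a share of up to 0.0604%. In Snhg1 it went from 1.11% and 0.546% in control to at most 0.153%, and in Snhg6 from 2.55% and 2.26% to at most 0.0708%. In these 4 hosts the treated shares lay below both control shares, but the host's own counts are in the share, so a rise of the host alone lowers it. For Snhg1 the counts of Snord22 did not pass the test, and its 3 h libraries overlapped control. Intervals cover counting error only.

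The 2 falling hosts with small RNA counts had other shares. In Snhg9 the share was 74.6% and 74.8% in control and 65.9% to 75.0% in treated libraries. Snora78 read 13.5 and 10.1 scaled CPM in control, 1.81 and 3.64 after 3 h and 1.78 and 2.22 after 6 h. Its log2 fold change was -2.11 (edgeR adjusted p = 0.0215) at 3 h and -2.57 (edgeR adjusted p = 0.00269) at 6 h, beside -1.85 and -2.21 for Snhg9. In Snhg4 the share was 17.1% and 18.3% in control, 19.2% and 23.1% after 3 h and 29.7% and 42.4% after 6 h. Snora74a was lower than control at both times, at -1.91 (edgeR adjusted p = 0.0248) and -1.29 (edgeR adjusted p = 0.0235), beside -2.22 and -2.74 for Snhg4. The differences between small RNA and host were not tested.

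**Figure D4:**
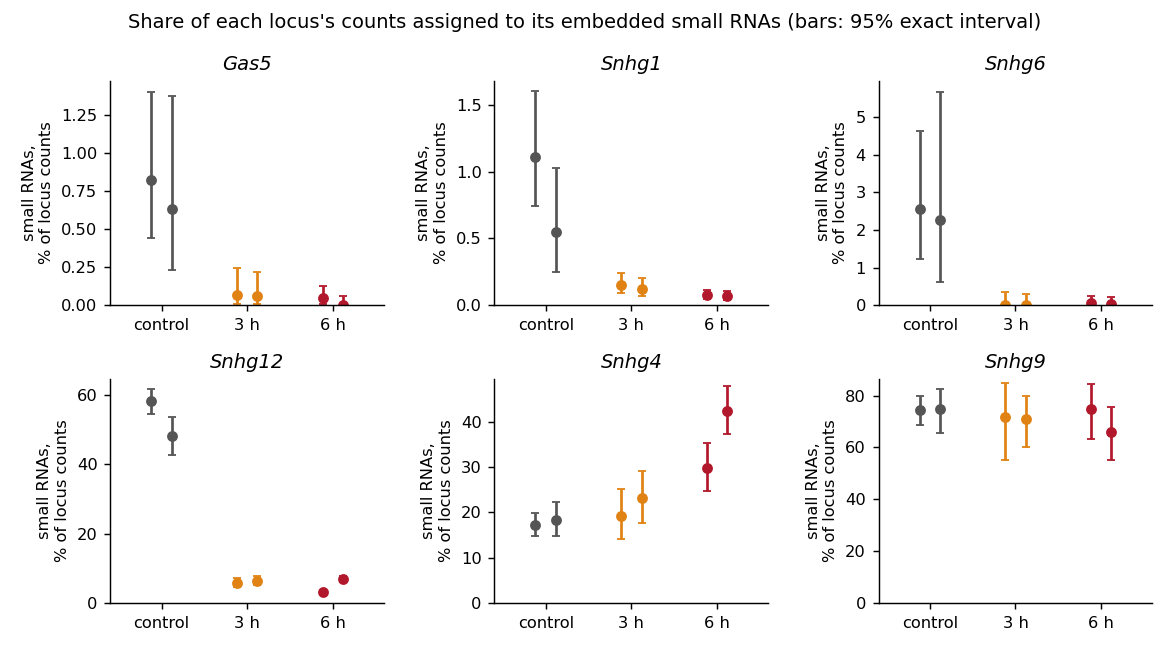
Percent of each locus's counts assigned to its analysed small RNAs (vertical axis, from 0, scaled for each gene) in each library, with 95% exact binomial bars. Only Snord47 is counted for Gas5, Snord22 for Snhg1 and Snora74a for Snhg4. In Gas5, Snhg1, Snhg6 and Snhg12 the treated points lie below both controls, in Snhg9 all libraries lie between 65.9% and 75.0%, and in Snhg4 the 6 h points are the highest.

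Among the analysed small RNAs of Gas5, Snhg1 and Snhg6, counts were low throughout. Snord47 of Gas5, a C/D snoRNA, held 13 and 6 counts in control and 0 to 3 in treated libraries. Its log2 fold change was -2.74 at 3 h (edgeR adjusted p = 0.176) and -3.87 at 6 h (edgeR adjusted p = 0.0355), sizes that rest on very few counts. Snord22 of Snhg1 held 28 and 9 counts in control and 16 to 24 in treated libraries, with log2 fold changes of -0.63 (edgeR adjusted p = 0.564) and -1.05 (edgeR adjusted p = 0.229). Snord87 of Snhg6 held 10 and 4 counts in control and at most 2 after treatment, too few for the test.

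The hosts also differ in where their first reading frame ends. On the drawn transcript, the frame opened by the first ATG was read to its stop, and the distance from there to the last exon junction was measured. A stop more than about 50 bases upstream of the last junction is the position usually associated with NMD. The stop lay 315 bases before the last junction in Gas5, 220 in Snhg1, 213 in Snhg12 and 73 in Snhg6. It lay 40 bases before it in Snhg4, and in Snhg9 and Dancr the stop was in the last exon, at -72 and -140 on the same scale. The frames were 15 to 64 codons long, with 23 in Gas5 and 64 in Dancr. The 4 hosts that rose thus lay above 50 bases and the 3 that fell below. The measure was chosen after the values had been seen, and it is a description without a test.

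Other annotated forms of these genes did not all share the drawn frame. The stop lay over 50 bases before the last junction in 24 of 25 spliced Gas5 forms, 15 of 18 of Snhg1, 9 of 10 of Snhg12 and 4 of 5 of Snhg6, against 2 of 5 of Snhg4, 0 of 2 of Dancr and 0 of 1 of Snhg9. The feature is common, since 72.7% of 11056 spliced non-coding GENCODE transcripts tagged basic have it. Those without a first ATG frame that reaches a stop count there as lacking the feature. The host forms were all annotated ones with such a frame, tagged basic or not, so the shares are not strictly matched. Which form these cells used cannot be read from gene counts.

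**Figure D5:**
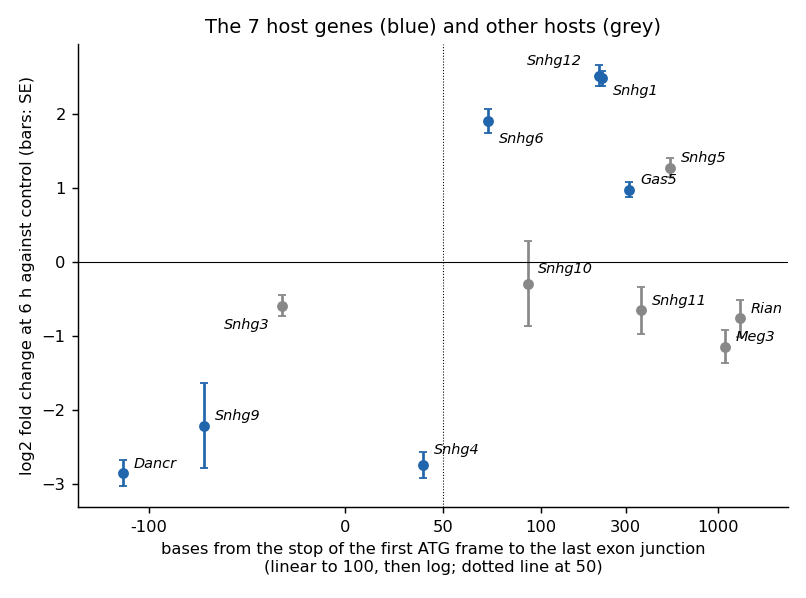
Log2 fold change at 6 h against control (vertical axis; bars are SE) by the distance in bases from the stop of the first ATG frame to the last exon junction (horizontal axis, linear to 100 and then logarithmic, dotted line at 50), for the 7 host genes (blue) and other non-coding hosts with a measurable frame (grey). Gas5, Snhg1, Snhg6 and Snhg12 lie at upper right and Dancr, Snhg9 and Snhg4 at lower left, while Snhg10, Snhg11, Meg3 and Rian lie right of the dotted line and below 0.

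Other non-coding hosts with such a distance had changes of both signs. In 5 the stop lay over 50 bases before the last junction on the 1 transcript used per gene. Of these, Snhg5 rose and the other 4 had log2 fold changes below 0 at 6 h. Among those 4, Meg3 alone was called. Of 16 listed, 8 were found in the files and tested. Snhg5, which hosts C/D snoRNAs, rose from 61.1 and 71.0 scaled CPM in control to 130.4 and 124 at 3 h and 169 and 151 at 6 h, with log2 fold changes of 0.95 (edgeR adjusted p = 0.00765) and 1.28 (edgeR adjusted p = 5.31e-04). Its stop lay 536 bases before the last junction. Meg3, an imprinted non-coding RNA with a stop 1099 bases before its last junction, was at 156 and 92.3 scaled CPM in control and 54.6 and 58.5 at 6 h, a log2 fold change of -1.14 (edgeR adjusted p = 0.00686). Snhg7 fell at 6 h, at -0.97 (edgeR adjusted p = 0.0182), and so did Snhg3, at -0.59 (edgeR adjusted p = 0.016), which was named after its value was seen. Rian, Snhg11 and Snhg10, with distances of 1329, 369 and 93 bases, stood at -0.76, -0.65 and -0.29 and did not pass (edgeR adjusted p = 0.0512, 0.158 and 0.739), and they were named after their values were seen. In all, 1 of 8 was called at 3 h, where 4.90% of all tested genes were, and 4 of 8 at 6 h, 1 higher and 3 lower, where 14.8% and 14.3% of all tested genes were. The median log2 fold change was -0.27 at 3 h and -0.62 at 6 h. With library size alone 1 of the 8 was called lower and 1 higher at 6 h, where 496 and 3671 of all 12755 tested genes were.

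Protein-coding snoRNA hosts are mostly genes of ribosomal proteins and translation factors. Of 33, 1 was called at 3 h, where 4.90% of all tested genes were. This was the translation initiation factor gene Eif4a2, at a log2 fold change of 0.96 (edgeR adjusted p = 0.0104). At 6 h 24 were lower and 2 higher, Eif4a2 at 1.17 (edgeR adjusted p = 0.00126) and Nop58 at 0.43 (edgeR adjusted p = 0.0339), with a median of -0.46. Over all tested genes 14.3% were lower and 14.8% higher. The smallest p belonged to Hspa8, the constitutive heat shock cognate, which fell from 1218 and 1280.0 scaled CPM to 302 and 318 at 6 h, a log2 fold change of -2.01 (edgeR adjusted p = 3.04e-05). Eif4a2 and Nop58 were named after their values were seen. The calls in this group depended on the scaling: with library size alone the median at 6 h was -0.10, and 2 of the 33 were called lower and 3 higher. Of all 12755 tested genes, that scaling called 496 lower and 3671 higher at 6 h. DESeq2 called 16 of the 33 lower at 3 h, beside 661 genes called lower in that fit as a whole.

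Proteins that build snoRNA particles had a share of calls near that of all tested genes. Of 18, among them the C/D core proteins Fbl, Nop56 and Nop58 and the H/ACA pseudouridine synthase Dkc1, 1 was called at 3 h, where 4.90% of all tested genes were. This was Tgs1, the enzyme that hypermethylates the cap of some small RNAs, at a log2 fold change of 0.62 (edgeR adjusted p = 0.0289) at 3 h and 0.57 (edgeR adjusted p = 0.0104) at 6 h. At 6 h 2 were higher and 4 lower, beside 29.0% of all tested genes called. Ruvbl1, an ATPase of particle assembly, had the smallest p, at -0.64 (edgeR adjusted p = 0.00706). With library size alone 6 were called higher and none lower at 6 h, where 3671 of all 12755 tested genes were called higher and 496 lower. Nop56, Nop58 and Dkc1 are in both this group and the protein-coding hosts. Tgs1 was named after its value was seen.

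Of 12 NMD factors, none passed at 3 h in edgeR or limma-voom, where 4.90% of all tested genes passed in edgeR. At that time 1 passed in DESeq2, 3 in edgeR with library size alone, and 4 had an unadjusted edgeR p under 0.05, all 4 higher. Over all genes DESeq2 called 1447 at 3 h, and library size alone called 1373, of which 1316 were higher. At 6 h 3 were higher and 1 lower, a share near the 29.0% of all tested genes called. Smg8, a regulator of the kinase that phosphorylates Upf1, had the smallest p, at a log2 fold change of -0.82 (edgeR adjusted p = 0.0042). Among the higher were Upf2 at 1.15 and Smg9 at 0.99, with edgeR adjusted p of 0.00605 and 0.0322, named after their values were seen. The median of the 12 was 0.20 at 3 h and 0.46 at 6 h, and with library size alone 0.43 and 0.82, with 5 called higher and 1 lower at 6 h. Over all 12755 tested genes, library size alone called 3671 higher and 496 lower at 6 h. The median of all tested genes in that fit was 0.25 at 3 h and 0.40 at 6 h.

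Genes whose pattern over the 6 libraries was most like that of a host were listed by the root mean square distance of centred log2 scaled CPM. Snhg12 was the nearest gene to Snhg1, at 0.12, and Snhg1 the nearest to Snhg12, out of 5299 genes compared. Klf10, a transcription factor gene, was among the 3 nearest to both, at 0.161 from Snhg1 and 0.139 from Snhg12. Alkbh1 completed the list of Snhg1 and Cited4 that of Snhg12, at 0.148 and 0.149. Gas5 was nearest to Brd1, Rsrc2 and Lrr1, at 0.048 to 0.062, and Snhg6 was near Arl4a, at 0.102, and Micu3, at 0.142.

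The falling hosts had more distant neighbours. Dancr was nearest to Snhg4, at 0.185, and then to Mir17hg, the host of a microRNA cluster, at 0.338 and the mitochondrial gene mtNd6 at 0.342. Snhg4 was nearest to mtNd6 at 0.314, Mir17hg at 0.331 and Trim25 at 0.365, since Dancr and Snhg9 were below the mean of 20 scaled CPM asked of a neighbour. Snhg9 was nearest to Tfcp2l1 at 0.363, Vim at 0.372 and Mir17hg at 0.378. These distances describe 6 libraries and carry no test.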

How the data were processed

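The authors deposited unnormalized counts, whole numbers for each gene, in a separate file for each library. RNA was extracted with TRIzol, and polyadenylated RNA was barcoded, pooled and sequenced, per the labels' protocols, and the build is mm10 per the submitters' processing notes. The aligner, counting program, annotation, strand setting and treatment of molecular identifiers are not given in the sources used here. The series title calls the data bulk while its design text speaks of single cells, and each file holds 1 column, analysed as 1 bulk library. An entry that names no gene, with 0 to 2 counts, was left out. Library totals were 9385447 to 27351079 counts, so 3 counts, the floor used, equal 0.0989 to 0.366 scaled CPM.

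Counts were fitted with edgeR 4.0.16 in R 4.3.3, after filterByExpr (minimum count 10, total 15) and TMM scaling (30% of M and 5% of A values trimmed), with 1 mean per group over all 6 libraries, no block and 3 residual degrees of freedom. Two-sided quasi-likelihood p-values were adjusted by the Benjamini-Hochberg method over 12755 genes in each of the 3 comparisons. SEs were taken from the fold change and its F statistic. Scaled CPM are TMM-scaled. The fit was tested on simulated data, where false calls made up more of all calls than the nominal rate, so calls close to the threshold are less certain than their adjusted p. Alternatives used DESeq2 1.42.0, limma-voom (limma 3.58.1), other scalings and filters, thinning, a replicate block and leaving out each library. Adding small RNA counts to the host was chosen after seeing the data.

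The named genes are the 7 hosts, the 3 genes nearest to each (mean of at least 20 scaled CPM, a prior of 0.5 before the log), the other hosts with the largest 6 h rises and falls, and the gene of smallest p in each protein list. Some genes under this rule are not reported here. The hosts and lists were chosen with earlier results of these data known. Exons, reading frames and small RNA spans come from GENCODE M21, and gene spans and promoter windows from RefSeq on GRCm38.p6. No start window was used for Snhg4 and Snhg6.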

Additional observations from a re-analysis of the deposited data

Results flagged for a closer look

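The response of Snhg1 to cycloheximide differed between the treatment times in a direct test. The log2 fold change of 6 h against 3 h was 0.52 ± 0.10 (SE; edgeR adjusted p = 0.0364), and both 6 h libraries lay above both 3 h libraries. The call was lost with the replicate number as a block (edgeR adjusted p = 0.0618) and without any 1 of the 4 treated libraries (0.155 to 0.27).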

How the results depend on the processing

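The hosts' log2 fold changes, over 3 comparisons and all alternatives, gave 325 values on the same side of the threshold with the same sign, 17 that gained a call, 10 that lost one and 2 that changed sign. Both sign changes were Snhg9 at 6 h against 3 h, 0.28 without 3 h replicate 2 and 0.05 without 6 h replicate 1, within a range of -0.90 to 0.28 leaving out 1 library. Against control, every alternative kept the sign of all 7 hosts. Leaving out 1 library at a time called 5 to 6 hosts at 3 h, 6 to 7 at 6 h and 0 to 3 at 6 h against 3 h. For the last, DESeq2, no filter and a strict filter (50 counts in every library of a group) called 3 hosts, limma-voom, library size alone, only the libraries compared and thinning to 9385447 counts called 2, and the replicate block called 0. Snhg9 did not enter the strict filter.

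Counts over all genes moved more. At 3 h, 625 genes were called, 1447 with DESeq2, 1373 with library size alone, 1812 with no filter, 218 with only the libraries compared and 108 to 1033 leaving out 1 library. At 6 h, 3703 were called and 1312 to 3578 leaving out 1 library. At 6 h against 3 h, 209 were called, 688 with DESeq2, 508 with limma-voom, 1058 with no filter, 126 with the replicate block, 563 with only the libraries compared and 14 to 595 leaving out 1 library. The cause of these differences was not tested. With library size alone, 95.8% of calls at 3 h were higher against 73.4%, 88.1% against 50.8% at 6 h, and 56.5% against 27.8% at 6 h against 3 h.

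The labels do not say what a replicate number pairs. Between groups, deviations from the group mean in libraries with the same number had correlations of 0.118, -0.026 and 0.019. Such correlations cannot settle whether these libraries were paired. The block called 425 genes at 3 h and 3550 at 6 h, with 6 and 7 hosts. Low counts limit Snhg9 and most small RNAs.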
